A study of Mus musculus with 4 samples.

Results

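Sialic acid synthesis and sialyltransferase genes were examined in CD45+ immune cells from epididymal white adipose tissue (eWAT) of mice on a normal diet (ND) or a high-fat diet (HFD). The 10 genes were chosen by name as makers of the sialylated glycans that siglecs bind, from the 35869 genes listed in each sample. They were Gne, Nans, Cmas, Slc35a1, Cmah, St3gal1, St3gal4, St3gal6, St6gal1 and St8sia4. All 10 were listed and all 10 passed the filter on low values, which 16849 genes passed. Wild-type male C57BL/6 mice were fed ND or HFD for 12 weeks from 8 weeks of age, with 2 samples per diet. The CD45+ cells were enriched from the stromal vascular fraction with magnetic beads, and their RNA was sequenced in bulk, so each value averages over all leukocytes of a sample and any other cells carried along. Neither the labels nor the methods say how many mice each sample holds or that the samples came from separate mice, so p-values measure only the spread between these samples, which may be technical.

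Sialic acids are acidic sugars that cap the ends of glycans on cell surfaces and secreted proteins, and the siglecs of leukocytes read them. Cells build sialic acid from UDP-N-acetylglucosamine through Gne and Nans, activate it to CMP-sialic acid in the nucleus with Cmas, and carry it into the Golgi with Slc35a1. Cmah hydroxylates part of the activated pool, turning N-acetylneuraminic acid into N-glycolylneuraminic acid, the form that mice make and humans lack. Sialyltransferases then attach the sugar: the ST3GAL and ST6GAL enzymes join it to different carbons of galactose, and ST8SIA enzymes add sialic acid to sialic acid.

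HFD was accompanied by lower Cmah, St3gal6 and St3gal4 and by higher Cmas, while the other 6 genes were not called. In TPM, a gene's share of a sample's transcripts scaled for gene length, so that levels of different genes can be compared, mean Cmah was 4.98-fold lower in HFD, mean St3gal6 3.20-fold lower and mean St3gal4 2.13-fold lower. Mean Cmas was 1.64-fold higher. Fitted changes are given below as log2 fold changes of TPM + 1 (HFD minus ND) from limma, which understate the change of low genes, and a gene was called where the adjusted p was under 0.05 and the fitted change at least 1.5-fold. By that rule 4 of the 10 genes were called, against 18.4% of all genes tested. One direction at a time, 1 of 10 was called higher, against 8.08% of all genes, and 3 of 10 lower, against 10.3%. The 10 genes had a median log2 fold change of -0.19 and all genes one of 0.06, with quartiles of -0.27 and 0.36. In absolute size the median change was 0.29 for the 10 genes and 0.32 for all genes tested. In bulk RNA, fewer cells of a type and less of a transcript per cell cannot be told apart.

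**Figure D1:**
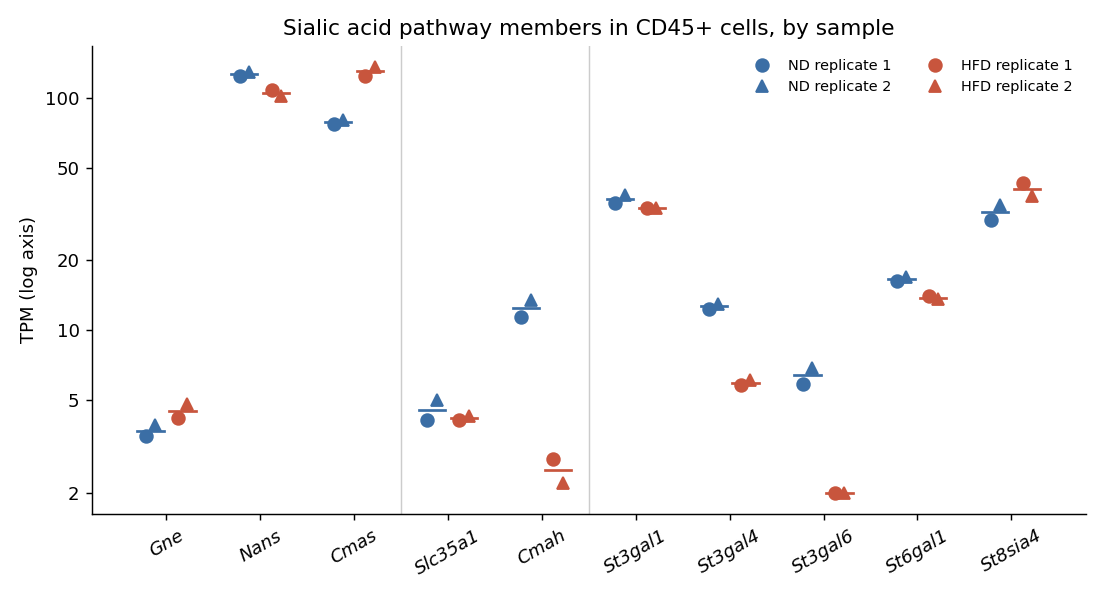
TPM of each of the 10 genes in the 2 ND and 2 HFD samples, one point per sample. Cmah, St3gal4 and St3gal6 lie well below their ND values in both HFD samples and Cmas lies above, while Slc35a1 is the gene whose values overlap between diets.

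The promoter windows of the 4 called genes are shown here because these genes passed both the p and the fold threshold. They are the 250 bases before the transcription start in RefSeq on GRCm38.p6, read 5′ to 3′ on the strand of the gene. RefSeq windows were matched for 8 of the 10 genes. Nans and St3gal1 had no entry. Capitals mark matches, on either strand, to 7 motifs searched by their letters: the GC box GGGCGG, the CCAAT box CCAAT, the TATA box TATAAA, an Ets element GAGGAAG, an AP-1 element TGANTCA, an E-box CACGTG and an octamer ATGCAAAT. Cmas lies at chr6:142756436-142756685 on the plus strand, the starts of Cmah at chr13:24327154-24327403 and chr13:24414872-24415121 on the plus strand, St3gal4 at chr9:35116865-35117114 on the minus strand, and the starts of St3gal6 at chr16:58524254-58524503 and chr16:58523427-58523676 on the minus strand.
Cmas: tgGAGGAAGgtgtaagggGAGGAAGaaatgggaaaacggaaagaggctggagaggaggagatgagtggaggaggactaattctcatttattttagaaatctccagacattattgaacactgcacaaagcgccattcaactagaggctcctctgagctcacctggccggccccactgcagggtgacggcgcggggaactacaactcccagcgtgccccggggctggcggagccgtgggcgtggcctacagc
Cmah first start: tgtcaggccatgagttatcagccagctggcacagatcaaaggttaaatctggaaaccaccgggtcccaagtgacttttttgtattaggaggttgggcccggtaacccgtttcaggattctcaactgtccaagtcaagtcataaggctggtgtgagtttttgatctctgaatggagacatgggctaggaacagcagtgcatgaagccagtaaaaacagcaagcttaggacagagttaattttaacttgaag
Cmah second start: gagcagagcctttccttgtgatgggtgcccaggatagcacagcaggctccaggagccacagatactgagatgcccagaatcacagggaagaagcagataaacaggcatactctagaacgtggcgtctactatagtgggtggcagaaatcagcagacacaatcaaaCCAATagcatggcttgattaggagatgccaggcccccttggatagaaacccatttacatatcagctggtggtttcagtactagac
St3gal4: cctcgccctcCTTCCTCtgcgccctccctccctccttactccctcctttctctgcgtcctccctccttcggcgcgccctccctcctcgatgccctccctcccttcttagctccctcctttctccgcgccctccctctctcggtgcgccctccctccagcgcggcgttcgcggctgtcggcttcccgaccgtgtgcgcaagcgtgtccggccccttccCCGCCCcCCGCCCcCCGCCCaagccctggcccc
St3gal6 first start: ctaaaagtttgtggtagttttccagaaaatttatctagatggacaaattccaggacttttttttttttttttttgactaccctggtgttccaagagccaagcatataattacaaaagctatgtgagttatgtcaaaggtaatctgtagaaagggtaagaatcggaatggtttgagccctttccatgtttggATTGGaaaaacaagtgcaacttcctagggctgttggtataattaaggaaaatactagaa
St3gal6 second start: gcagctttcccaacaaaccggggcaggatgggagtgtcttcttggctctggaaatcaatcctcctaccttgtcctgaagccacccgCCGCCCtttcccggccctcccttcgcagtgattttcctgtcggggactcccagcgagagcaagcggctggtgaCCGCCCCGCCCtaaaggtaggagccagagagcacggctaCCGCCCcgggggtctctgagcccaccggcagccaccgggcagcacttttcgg

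No motif was found in the windows of all 4 genes. Cmas, the gene that rose, held 2 Ets elements, the nearer 232 bases before the start, and 11 CG dinucleotides. Cmah, the gene with the largest drop of the 10, held no match and 3 CG dinucleotides at its first start, and 1 CCAAT box, 85 bases before the start, and 2 CG dinucleotides at its second. St3gal4 held 3 GC boxes, the nearest 19 bases before the start, with 1 Ets element and 25 CG dinucleotides, more than 89.3% of the 32851 mouse windows of this length. St3gal6 had 1 CCAAT box and 1 CG dinucleotide at its first start, but 4 GC boxes and 16 CG dinucleotides at its second. Ets elements were thus found for Cmas and St3gal4, GC boxes for St3gal4 and St3gal6, and CCAAT boxes for Cmah and St3gal6. The same motifs stood before genes that were not called: St8sia4 held a GC box, a CCAAT box and an Ets element, Slc35a1 a GC box, and St6gal1 a CCAAT box at each of its 3 starts. Slc35a1 also held a TATA box, St6gal1 an AP-1 element at start 3, and Gne no match at either start. Of all windows, 32.7% held a GC box, 33.8% a CCAAT box and 10.6% an Ets element, and the median number of CG dinucleotides was 6. For the motifs with no match in the 6 windows shown the shares were 12.4% for the TATA box, 6.75% for the AP-1 element, 6.02% for the E-box and 1.6% for the octamer. A match is a run of letters and no measured binding site, and gene-level values do not show which start was used in these cells.

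The 10 genes lie on 7 chromosomes of mm10 and all are protein-coding in GENCODE. Gne (chr4:44034075-44084177, minus strand), Nans (chr4:46489248-46503632, plus), Slc35a1 (chr4:34663257-34687438, minus) and Cmas (chr6:142756686-142775714, plus) make, activate and carry the sugar. St3gal1 (chr15:67102875-67176830, minus), St3gal4 (chr9:35046576-35119268, minus), St3gal6 (chr16:58468125-58524243, minus), St6gal1 (chr16:23224740-23360350, plus) and St8sia4 (chr1:95587682-95667571, minus) transfer it, and Cmah, described below, lies on chromosome 13.

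Among the genes that make and activate sialic acid, 1 of 3 was called, and it was higher, where 8.08% of all genes tested were called higher. Gne, the bifunctional epimerase and kinase that begins the pathway and is its rate-limiting step, was at 3.5 and 3.9 TPM in ND and at 4.2 and 4.8 in HFD. Both HFD samples were a little above both ND samples, with a log2 fold change of 0.23 (SE 0.11), a 95% interval of -0.11 to 0.57 and a limma adjusted p of 0.239. Nans, the synthase that joins the sugar to its pyruvate-derived tail, stood at 124.2 and 129.2 TPM in ND and at 108.1 and 102.4 in HFD. Nans was lower in both HFD samples, by 0.27 on the log2 scale (fitted value -0.27, SE 0.05, limma adjusted p = 0.044), which passed the p threshold and not the 1.5-fold one. Nans missed the p threshold with no filter (limma adjusted p = 0.068) and without a variance trend (0.083). Nans also missed it under median-ratio scaling (limma adjusted p = 0.122) and with a replicate block (0.137), and passed it in the other fits with all 4 samples. Its exons share 1356 bases with Trim14 on the opposite strand, a gene that was not called (20.4 and 21.7 TPM in ND, 19.7 and 16.3 in HFD).

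Cmas, which charges sialic acid with CMP, was at 77.6 and 80.9 TPM in ND and at 124.6 and 135.9 TPM in HFD. The diets did not overlap, and the gap between them was many times the gap between replicates. Its log2 fold change was 0.71 (SE 0.07, limma adjusted p = 0.012). The level of Nans was 1.6 times that of Cmas in each ND sample, and 0.868 and 0.753 times in HFD, so the order of these 2 genes turned. The Cmas call was lost when samples were rescaled by median ratios (0.69, limma adjusted p = 0.0537). With 2 samples against 2, an exact permutation test of any such ratio cannot give a p below 0.33, and each of the ratios given here had that value.

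The transporter and the hydroxylase, which both act on CMP-sialic acid, moved differently. Slc35a1, the CMP-sialic acid carrier of the Golgi, was at 4.1 and 5.0 TPM in ND and at 4.1 and 4.3 TPM in HFD. These values overlapped, and the log2 fold change was -0.09 (SE 0.12) with a 95% interval of -0.46 to 0.28 and a limma adjusted p of 0.638. The level of Cmas over that of Slc35a1 was accordingly 18.9 and 16.2 in ND and 30.4 and 31.6 in HFD. Leaving out ND replicate 2 turned the sign of Slc35a1, to 0.03.

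Cmah was at 11.4 and 13.5 TPM in ND and at 2.8 and 2.2 TPM in HFD. Both HFD samples were far below both ND samples. The log2 fold change was -1.94 (SE 0.15, limma adjusted p = 0.009), and 1.32% of the genes tested had a lower one. Among the 1736 genes called lower, Cmah ranked 214 by log2 fold change. The gene spans chr13:24327404-24477377 on the plus strand of mm10, and in the GENCODE annotation its exons overlap those of no other gene. About 1730 and 2370 reads lay behind the ND values, and about 483 and 330 behind the HFD values. Set against Cmas, which makes its substrate, the level of Cmah was 0.147 and 0.167 in ND and 0.0225 and 0.0162 in HFD, an 8.12-fold gap between the means.

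**Figure D2:**
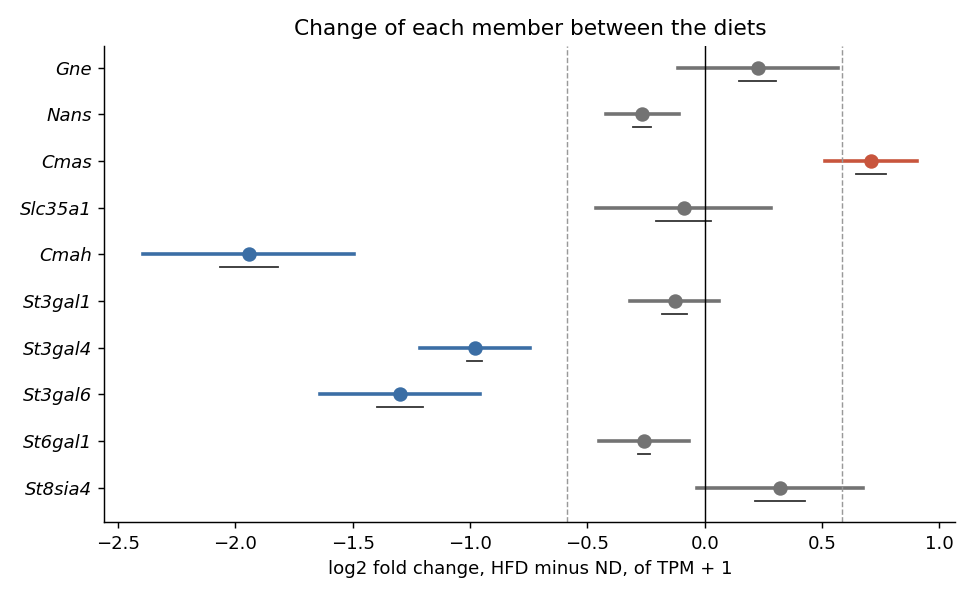
Log2 fold change of TPM + 1 (HFD minus ND) for the 10 genes, with dots for the fit, thick bars for the 95% interval and thin lines for the range over the 4 fits that each leave out 1 sample. Dashed lines mark 1.5-fold, and the intervals of Cmah, St3gal4 and St3gal6 lie wholly beyond the lower line while that of Cmas reaches from 0.51 to 0.90.

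Of the 5 sialyltransferases, 2 were called, both ST3GAL enzymes and both lower, where 10.3% of all genes tested were called lower. St3gal1, which caps the short O-glycans of leukocyte mucins, was at 35.5 and 38.3 TPM in ND and at 33.7 and 33.6 TPM in HFD. Its HFD values were slightly below its ND values, with a log2 fold change of -0.13 (SE 0.06), a 95% interval of -0.32 to 0.06 and a limma adjusted p of 0.227. St3gal4, which with St3gal6 caps N-acetyllactosamine chains and contributes to selectin ligands, was at 12.4 and 13 TPM in ND and at 5.8 and 6.1 TPM in HFD. The drop left the HFD samples far apart from the ND samples (log2 fold change -0.98, SE 0.08, limma adjusted p = 0.010).

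St3gal6 was at 5.9 and 6.9 TPM in ND and at 2.0 TPM in each HFD sample. It fell by 1.30 on the log2 scale (fitted value -1.30, SE 0.11, limma adjusted p = 0.011), with about 519 and 702 reads behind the ND values and 200 and 174 behind the HFD values. St3gal4 and St3gal6 summed to 0.515 and 0.520 times the level of St3gal1 in ND and to 0.231 and 0.241 times in HFD, so the gap between diets dwarfed that between replicates. St3gal6 also lost ground to St3gal4, from 0.476 and 0.531 times its level to 0.345 and 0.328 times. Their exons overlap those of genes on the opposite strand, and whether the counting used strand was not stated. For St3gal6, 1603 of 6172 exon bases are shared with Dcbld2, which was higher in HFD (2.3 and 2.5 TPM against 11.8 and 14.4), and for St3gal4, 412 bases are shared with the noncoding gene 4930581F22Rik, which was lower (17.8 and 16.7 TPM against 9.6 and 7.2). The part of these neighbours in the St3gal6 and St3gal4 values was not tested.

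St6gal1, which makes the galactose-linked sialic acid that Cd22 binds, was at 16.4 and 17.0 TPM in ND and at 14.0 and 13.6 TPM in HFD. The HFD samples were lower by little, with a log2 fold change of -0.26 (SE 0.06), a 95% interval of -0.45 to -0.07 and a limma adjusted p of 0.068. St8sia4, which extends polysialic acid, was at 29.8 and 34.7 TPM in ND and at 43.2 and 37.9 TPM in HFD. The HFD values were higher, with a log2 fold change of 0.32 (SE 0.12), a 95% interval of -0.03 to 0.68 and a limma adjusted p of 0.14. Relative to the sum of the 3 ST3GAL enzymes above, St6gal1 stood at 0.305 and 0.292 in ND and at 0.337 and 0.326 in HFD. St8sia4 over St6gal1 went from 1.82 and 2.04 to 3.09 and 2.79.

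**Figure D3:**
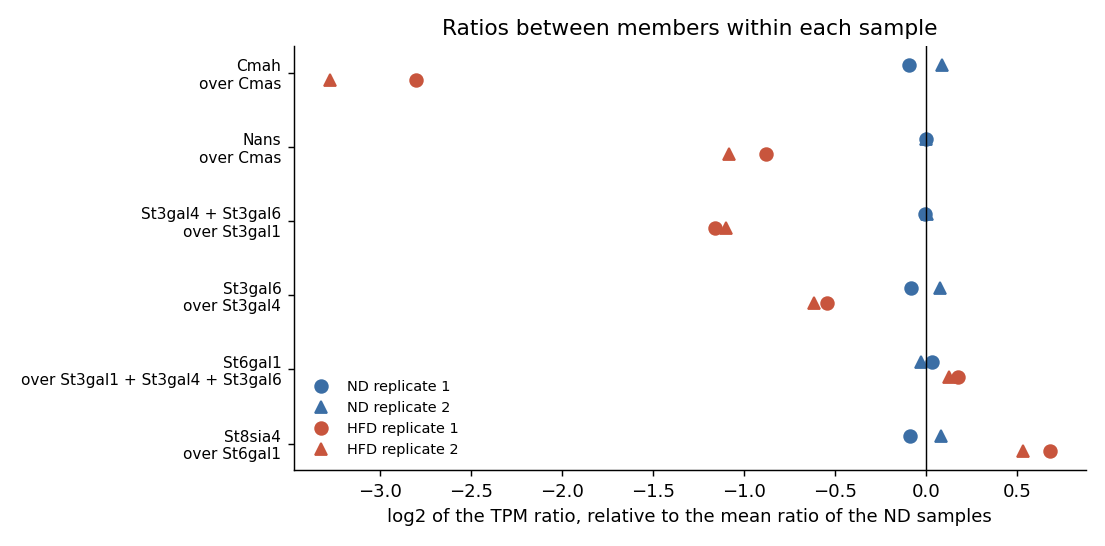
Ratios between the levels of the 10 genes in each sample, drawn as log2 relative to the ND mean, so that the ND points lie around 0. Cmah over Cmas moved furthest, with both HFD samples below both ND samples, and every ratio shown separated the diets. Cmah over Cmas, Nans over Cmas and St8sia4 over St6gal1 had to separate them, because the genes of each moved in opposite directions.

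The summed levels depended on which enzymes were counted. The 5 sialyltransferases summed to 100 and 109.9 TPM in ND and to 98.7 and 93.2 TPM in HFD, slightly lower. The 6 ST3GAL enzymes summed to 77.3 and 82.4 TPM in ND and to 61.8 and 62.2 TPM in HFD. All 20 sialyltransferases summed to 198.3 and 209.5 TPM in ND and to 246.7 and 186 TPM in HFD, which overlapped between diets. All 10 genes summed to 320.8 and 342.4 TPM in ND and to 342.5 and 342.8 TPM in HFD, values that stood close together.

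In ND the order of mean levels ran from Nans through Cmas, St3gal1, St8sia4, St6gal1, St3gal4, Cmah, St3gal6 and Slc35a1 to Gne, over a 34.2-fold span. St3gal4 and Cmah were the neighbours whose sample values overlapped there. In HFD the order ran from Cmas through Nans, St8sia4, St3gal1, St6gal1, St3gal4, Gne, Slc35a1 and Cmah to St3gal6, over a 65.1-fold span, and there Gne and Slc35a1 overlapped. Cmah and St3gal6 were thus the lowest of the 10 in HFD, and stood above Slc35a1 and Gne in ND. In 9 of the 10 genes both HFD values lay on 1 side of both ND values, 3 of them above and 6 below. Of all genes tested 66.9% were so separated.

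The other genes of the pathway were taken from 6 lists of 65 genes, of which 55 passed the filter. Of these 55, 18 were called, 10 higher and 8 lower, where all genes tested had 18.4% called, 8.08% higher and 10.3% lower. The median log2 fold change of the 55 was 0.16. Among the other 15 sialyltransferases 8 were tested, none was called higher and 2 (25%) were called lower, with a median of 0.05. St3gal3, a further ST3GAL enzyme, was at 4.2 and 4.4 TPM in ND and at 2.6 and 2.4 TPM in HFD (-0.60, limma adjusted p = 0.030). St8sia6, which adds a sialic acid to sialylated O-glycans, was at 4.7 and 5.8 TPM against 2.0 and 2.3 TPM (-0.98, limma adjusted p = 0.025). In both genes every HFD value was below every ND value. The St3gal3 change lay just past 1.5-fold, and its call was lost with a pseudocount of 5 (-0.31), with no filter on low values (adjusted p = 0.052), with quantile normalization (adjusted p = 0.067) and without HFD replicate 2 (-0.56). The St8sia6 call was lost with a pseudocount of 5 (-0.52), with no filter (limma adjusted p = 0.054), and without HFD replicate 1 (-0.92, adjusted p = 0.085) or 2 (-1.05, adjusted p = 0.065).

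The remaining ST3GAL enzymes passed the p threshold in opposite directions and under 1.5-fold. St3gal2 was at 6.1 TPM in both ND samples and at 8.5 and 8.4 TPM in HFD (0.41, limma adjusted p = 0.037). St3gal5, which makes the ganglioside GM3, was at 13.2 and 13.7 TPM in ND and at 9.2 and 9.7 TPM in HFD (-0.47, limma adjusted p = 0.029). St6gal2 was listed at 0 in all 4 samples. Counted over the 6 ST3GAL enzymes, 3 were called lower, St3gal3, St3gal4 and St3gal6 (10.3% of all genes were), none called higher and 3 not called, where the St3gal3 call has the limits given above.

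Of the 11 genes for removal, recycling and O-acetylation 9 were tested and 2 (22.2%) were called, both higher, with a list median of 0.26. That share is near the 18.4% of all genes called in either direction, and 8.08% of all genes were called higher. Renbp, the renin-binding protein with N-acetylglucosamine epimerase activity, was at 54.7 and 53.7 TPM in ND and at 91.8 and 98.7 TPM in HFD (0.80, limma adjusted p = 0.009). Slc17a5, the sialin that exports sialic acid from lysosomes, was at 5.5 and 6.6 TPM in ND and at 10.9 and 10.1 TPM in HFD (0.71, limma adjusted p = 0.033). Both were well separated between diets. The Slc17a5 call was lost with a pseudocount of 5 (0.49), with no filter (limma adjusted p = 0.06), and without HFD replicate 1 (0.66, adjusted p = 0.107) or 2 (0.76, adjusted p = 0.081).

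Of the sialidases, which cleave sialic acid from glycans, none was called. The lysosomal Neu1 was at 85.9 and 89.5 TPM in ND and at 97.7 and 105.8 TPM in HFD (0.21, limma adjusted p = 0.094). The plasma membrane Neu3 was at 3.3 and 3.9 TPM against 2.0 and 2.4 TPM (-0.52, limma adjusted p = 0.072), and Neu2 and Neu4 did not pass the filter. Neu1 was far the more abundant of the sialidases in every sample. Of the 6 genes that supply UDP-N-acetylglucosamine 1 was called: the kinase Nagk, at 13.2 and 13.8 TPM in ND and at 24.5 and 22.5 TPM in HFD (0.76, limma adjusted p = 0.014), with a list median of 0.32. This was 16.7% of the list, against 18.4% of all genes called in either direction and 8.08% called higher.

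The enzymes that build the galactose-bearing chains on which sialic acid is placed had 4 of 14 called (28.6%), all higher (8.08% of all genes were called higher), with a median of 0.34. Mgat5, which starts the branch of N-glycans that carries long N-acetyllactosamine chains, was at 4.8 and 5.3 TPM in ND and at 17.0 and 15.7 TPM in HFD (1.52, limma adjusted p = 0.007). B4galt5, a galactosyltransferase of glycolipids, was at 121.9 and 125.7 TPM against 251.8 and 282.9 TPM (1.10, limma adjusted p = 0.008). Gcnt1, which branches O-glycans, was at 5.0 and 5.5 TPM against 10.2 and 9.5 TPM (0.80, limma adjusted p = 0.018). The fourth, B4galt2, was low throughout, at 0.5 TPM in both ND samples and at 1.3 and 1.5 TPM in HFD. It passed the filter only through its HFD values and is counted in the 28.6%. Its call was lost under median-ratio scaling (limma adjusted p = 0.065), under quantile normalization (adjusted p = 0.054) and with a pseudocount of 5 (0.22). The Gcnt1 call was lost with a pseudocount of 5 (0.53) and without HFD replicate 1 (0.75, limma adjusted p = 0.054).

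Of the 10 sialylated carrier proteins of leukocytes 9 were tested, with 3 called (33.3%, against 18.4% of all genes), 1 higher and 2 lower, and a median of -0.40. Cd44, the hyaluronan receptor, was at 23.1 and 24.9 TPM in ND and at 48.3 and 50.8 TPM in HFD (1.02, limma adjusted p = 0.008). Cd24a, a mucin-like ligand of siglecs, was at 265.0 and 276.0 TPM against 59.9 and 62.0 TPM (-2.13, limma adjusted p = 0.004). Spn, the leukocyte sialomucin CD43, was at 16.9 and 18.0 TPM against 6.0 and 6.5 TPM (-1.35, limma adjusted p = 0.007). The called carriers thus included genes of both directions, and the other 6 tested were not called. Of the 9 siglecs, the receptors for these glycans, 6 (66.7%) were called: 2 higher, Siglec15 (3.13) and Cd22 (0.73), and 4 lower, Siglech (-2.52), Siglece (-2.03), Siglecg (-1.87) and Cd33 (-1.73), with a list median of -0.66, where 18.4% of all genes were called. Siglec15 (0.2 and 0.1 TPM in ND, 9.8 and 8.4 in HFD) passed the filter only through its HFD values. Siglech (6.2 and 7.3 TPM in ND, 0.4 and 0.3 in HFD) passed it only through its ND values. Both are counted in the 66.7%. The Cd22 call was lost with a pseudocount of 5 (0.30). Siglecf (-0.66, limma adjusted p = 0.064), Mag (-0.49, limma adjusted p = 0.125) and Siglec1 (-0.08, limma adjusted p = 0.624) were not called. Siglecf became called under median-ratio scaling (-0.68, limma adjusted p = 0.041) and quantile normalization (-0.64, limma adjusted p = 0.042), and Mag without HFD replicate 1 (-0.66, limma adjusted p = 0.043).

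**Figure D4:**
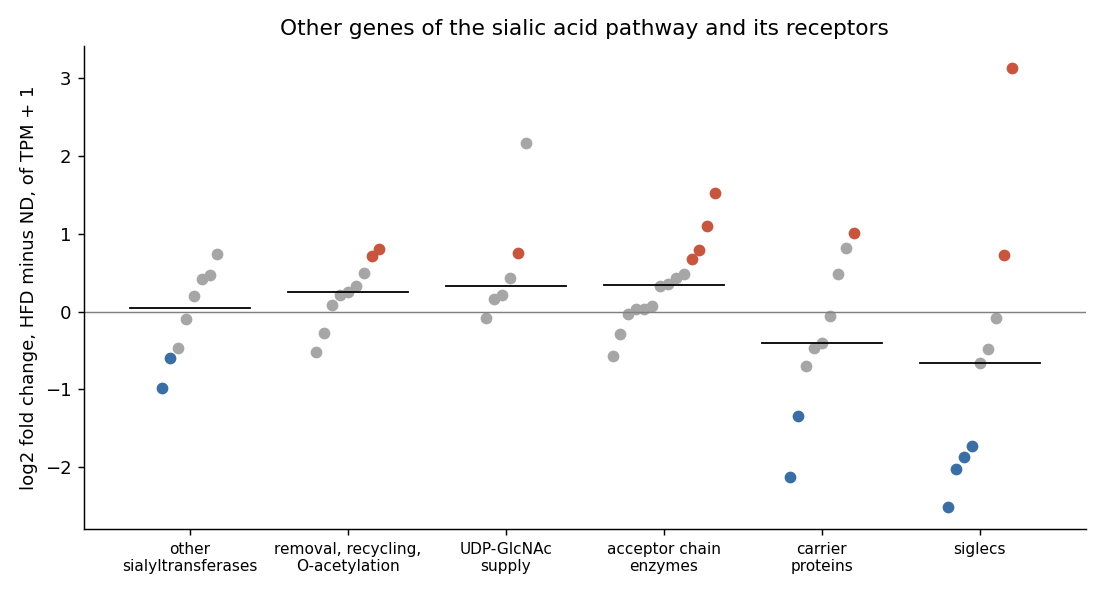
Log2 fold change of TPM + 1 (HFD minus ND) for each tested gene of the wider pathway, by list, with black bars at the list medians. The chain-building list has its called genes on the higher side and the other sialyltransferases have theirs on the lower side.

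Many markers of leukocytes and of other cells differed between the same samples. Ptprc, which encodes CD45 itself, was at 54.5 and 59.4 TPM in ND and at 55.3 and 53.7 TPM in HFD and was not called. Lower in HFD were all 7 B cell markers (summed TPM of 154.2 and 151.3 in ND, 28.4 and 33.3 in HFD), all 5 NK cell markers (167.1 and 172.1 against 35.2 and 28.0) and all 6 neutrophil markers (262.6 and 285.2 against 33.7 and 35.4, or 71.4 and 94.6 against 28.4 and 30.8 without Mmp9, which made up most of the ND sum). Also lower were all 4 mast cell markers (832.5 and 847.3 against 210.1 and 259.2), 7 of the 8 listed T cell markers (148.5 and 159 against 19.1 and 34.8 over those 7, and 174.9 and 186.8 against 141.3 and 149.2 over all 8) and all 8 markers of resident macrophages (4940 and 5057 against 1586 and 1244). The eighth T cell marker, Il7r, was higher (26.4 and 27.8 TPM against 122.2 and 114.4); it and Mmp9 were set apart after their values were seen. The lower calls also took in 3 of 6 dendritic cell markers, 2 of 5 monocyte markers and 3 of 5 plasma cell markers, of which 1 other was called higher. Higher were all 10 markers of lipid-associated macrophages, from 1678 and 1720 to 11066 and 11630, and all 5 proliferation genes, from 57.8 and 59.4 to 153.2 and 134.8. Of the 7 fibroblast genes, which CD45+ cells should lack, 5 were called higher, and their sum went from 599.6 and 642.7 TPM to 3185 and 6327 TPM. All 4 epididymal epithelium genes were lower, from 75.4 and 89.4 TPM to 8.2 and 12 TPM. Of the 10 general macrophage markers 2 were called higher, 1 lower and 7 neither way (19729 and 19084 TPM against 16083 and 16928). Of the 4 eosinophil markers 1 was called lower and Epx was at 0 in all samples. Of the 5 plasmacytoid dendritic cell markers 3 were tested and 2 called lower. None of the 6 endothelial genes and none of the 6 spermatid genes was called. Of the 6 adipocyte genes 1 was called higher and 1 lower, and of the 4 mesothelial genes 1 was called lower. Epx apart, no marker of the lists given here was at 0 in all samples. The part of cell makeup in the changes of Cmah, St3gal4, St3gal6 and Cmas was not tested.

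**Figure D5:**
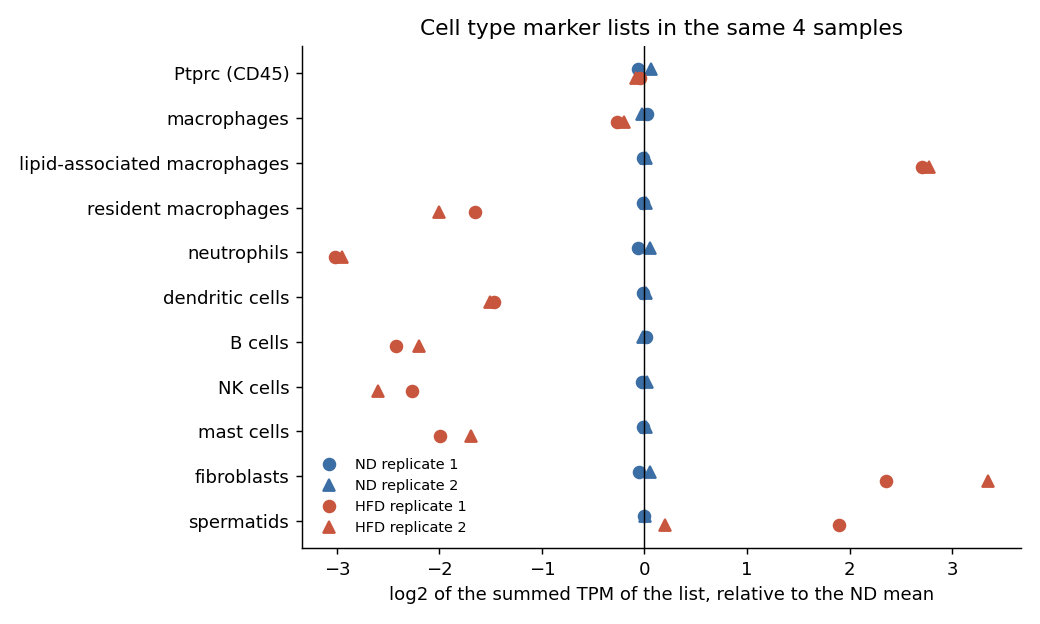
Summed TPM of selected marker lists in the 4 samples, as log2 relative to the ND mean of each list. Other lists, among them T cells and monocytes, are not drawn. The lipid-associated macrophage list lies above 0 in both HFD samples, and the B cell, NK cell, neutrophil, mast cell and resident macrophage lists lie below it.

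Fits that leave out 1 sample keep 1 sample in its diet, which is assumed to vary like the pair of the other diet, and that pair alone gives the spread. The HFD pair was the wider one, with 1933 genes 2-fold apart against 175 in the ND pair. Without ND replicate 1 or without ND replicate 2, where the HFD pair gives the spread, limma called 0 of 16849 genes, with smallest adjusted p of 0.167 and 0.161 and with 3862 and 4024 genes at an unadjusted p under 0.05, so no gene could be called there. Cmah then stood at -2.06 and -1.83, St3gal6 at -1.40 and -1.20, St3gal4 at -1.01 and -0.95, and Cmas at 0.68 and 0.74. Without HFD replicate 1 or 2, where the ND pair gives the spread, limma called 3051 and 4232 genes, Cmah, St3gal4, St3gal6 and Cmas among them. Over the 4 such fits the changes of these 4 genes kept their direction. This was fixed in advance, because both HFD values of each lay on 1 side of both ND values.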

How the data were processed

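RNA was measured in CD45+ eWAT cells, 2 samples each on ND and HFD. Per the labels and methods, the authors made stranded mRNA libraries, trimmed reads with Trim Galore 0.4.2 and cutadapt 1.9.1, aligned them to mm10 with STAR 2.6.1e, removed duplicates with Sambamba and counted genes with featureCounts 1.6.2. Versions are from the submitters' processing notes. The authors deposited TPM per gene and sample, rounded to 0.1, without counts. The annotation and the use of strand are not given in the sources used here.

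From the TPM, log2(TPM + 1) was fitted with limma 3.58.1 (R 4.3.3; eBayes with a variance trend, all 4 samples, Benjamini-Hochberg adjustment) over genes that reached a TPM of 1 in 2 or more samples. The fitting step was tested on simulated data. A call needed an adjusted p under 0.05 together with a 1.5-fold fitted change. Errors are SE, and intervals cover 95%. The 10 genes and all lists were chosen with earlier results of these data known. Of the other pathway lists, every called gene was named, and the sialidases, siglecs and other ST3GAL and ST6GAL enzymes were named called or not.

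TPM keeps no depth, but the step between the TPM of short microRNA genes gave an estimate of 37500000 and 44400000 counted reads in ND and 46800000 and 41000000 in HFD. Reads per gene are rough estimates from that step and GENCODE exon lengths and ignore multi-gene reads, so they carry no interval. Alternatives to the pseudocount, filter, variance trend, scaling, fold limit, replicate block and sample set were run.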

Additional observations from a re-analysis of the deposited data

How the results depend on the processing

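Some results changed with the processing. Of the 10 genes, 4 were called (1 higher, 3 lower) with all 4 samples. A fitted change of at least 2-fold was reached by 2, none of them higher (0). Median-ratio scaling left 0 called higher. Leaving out 1 sample gave 0 to 4 called, 0 to 1 higher and 0 to 3 lower. Without ND replicate 2, Slc35a1 turned from -0.09 to 0.028 (range over the samples left out -0.21 to 0.028), and without HFD replicate 2 Siglec1 turned from -0.08 to 0.027 (range -0.18 to 0.027). In the wider pathway, 18 genes were called (10 higher, 8 lower). A mean TPM of at least 5 left 11 (4 lower), with fewer genes tested. At least 2-fold left 10 (4 higher), and no limit on the change gave 31 (18 higher, 13 lower). A pseudocount of 5 left 6 higher. The calls over all genes moved too. Of 16849 genes tested, 3097 were called in the main fit, 1602 at 2-fold, 4602 with no limit and 2015 with that pseudocount. With a mean TPM of at least 5, 2250 of 10723 were called. Leaving out 1 sample gave 0 to 19 called, 0 to 11 higher and 0 to 8 lower. Other causes were not tested.

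Replicate numbers were not taken to pair samples across diets (correlation across 16849 genes of the replicate deviations, r = -0.015). With the replicate block 0 of the 10 genes were called (0 higher, 0 lower; limma adjusted p of 0.0502 for Cmas, 0.0541 for Cmah, 0.0617 for St3gal4 and 0.0607 for St3gal6), 8 of the wider pathway (3 higher, 5 lower) and 812 of all genes against 3097. With a 2-fold limit on the fitted change, St3gal4 (-0.98) and Cmas (0.71) lost their calls. In the other fits with all 4 samples and the 1.5-fold limit, Cmah and St3gal4 stayed called, Cmas stayed called except under median-ratio scaling, and St3gal6 wherever it passed the filter. The whole-gene median moved by under 0.1 under every scaling. Values near 2 TPM are rounded to 0.1, which limits the precision of St3gal6 and Cmah in HFD.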

Other observations

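Among genes of the pathway that were not called, 3 were picked out after their values were seen, because 1 HFD sample stood apart. St6galnac2, a sialyltransferase of O-glycans, was at 21.8 and 22.4 TPM in ND and at 69.4 TPM in HFD replicate 1 but 20.1 TPM in HFD replicate 2. St8sia3 had the same form, at 1.6 and 1.2 TPM in ND and at 4.8 and 0.9 TPM in HFD. The 6 spermatid genes summed to 1757 and 1773.5 TPM in ND and to 6577 and 2023 TPM in HFD, highest in the same sample. Summed over all 20 sialyltransferases, TPM was 198.3 and 209.5 in ND and 246.7 and 186.0 in HFD, and without St6galnac2 and St8sia3 it was 174.9 and 185.9 against 172.5 and 165.0. Gfpt2, which makes glucosamine phosphate for UDP-N-acetylglucosamine, was at 21.8 and 22.8 TPM in ND and at 61.4 and 174.2 TPM in HFD (log2 fold change 2.17, limma adjusted p = 0.0764). The 7 fibroblast genes summed to 599.6 and 642.7 TPM in ND and to 3185 and 6327 TPM in HFD, so both were highest in HFD replicate 2. Whether spermatid or fibroblast RNA had a part in these 3 genes was not tested.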
